A study of Mus musculus with 12 samples.

Results

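The genes of the sperm ion channels were examined in testis RNA of mice in which the long noncoding RNA lncRNA5251 had been knocked down or overexpressed. The members were taken by gene symbol: the pore genes Catsper1, Catsper2, Catsper3 and Catsper4, the auxiliary subunit genes Catsperb, Catsperd, Catsperg1 and Catsperg2, and the potassium channel gene Kcnu1. All 9 were found among the 20718 genes of the table, and all 9 passed the filter on low counts that left 16296 genes for testing. The 12 libraries fell into 4 groups of 3. The mice were ICR males (the labels give the strain as IRC), injected in the testis with lentivirus at 4 weeks of age and kept past 9 weeks. F0_3NC received the knockdown vector with a control hairpin and F0_5251KD a mix of 3 hairpins against lncRNA5251. F0_5NC received the empty overexpression vector and F0_5251OV the same vector with full-length lncRNA5251. All 4 groups, controls included, therefore carried lentivirus, and RNA of whole testis was read, so transduced and untransduced cells were mixed. Whether replicate libraries stand for separate mice is not in the labels, so the p-values describe library-to-library spread, which may be technical. Because the samples are bulk tissue, fewer cells of a type and less RNA per cell cannot be told apart.

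CatSper is the calcium channel of the sperm tail. Its pore is built from the 4 proteins CATSPER1 to CATSPER4, and auxiliary proteins with large extracellular parts, among them the beta, gamma and delta subunits, surround it. Kcnu1 encodes SLO3, the pH-sensitive potassium channel that sets the membrane voltage of mouse sperm, and LRRC52 is its accessory protein. Both channels are needed for hyperactivated swimming and male fertility in mice, and their genes are transcribed in germ cells during and after meiosis. The study asked whether lncRNA5251 takes part in spermatogenesis and sperm motility.

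The knockdown hairpins are shown because they are the agent that separates F0_5251KD from F0_3NC. They are written 5′ to 3′ as listed by the study, and capitals mark the longest run of bases that each shares with any transcript of a member.
3NC: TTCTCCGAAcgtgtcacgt
KD hairpin 1: gctgggacttaATGTCCTTCT
KD hairpin 2: gcaTGGGCAATTcaaacaaat
KD hairpin 3: GCTTATTATgcatcgtaaacc
Searched on both strands of 47 GENCODE transcripts of the members, no hairpin had a full match. The longest shared run was 10 bases, between hairpin 1 and Catsperg2. The control hairpin shared 9 bases with Kcnu1, hairpin 2 shared 9 bases with Catsperg1 and hairpin 3 shared 9 bases with Catsper2. For every hairpin only the first member found with the longest run is named, so other members may share a run of that length. All 3 knockdown hairpins matched over their whole length the single exon of Purb, in its 3′ UTR on the minus strand of chromosome 11 (GRCm38), at chr11:6468416-6468436, chr11:6467969-6467989 and chr11:6468248-6468268 for hairpins 1, 2 and 3.

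The libraries were close in depth, from 15431383 to 16355720 estimated counts (ratio of highest to lowest 1.06). No row of the table bore the name of lncRNA5251. CPM values (counts relative to the library total, scaled with the TMM factors of edgeR) of Purb, whose transcript holds the hairpin sites, ran from 72.2 to 79.6 in F0_5251KD and from 73.9 to 92.3 in F0_3NC, so the groups overlapped. The same values were 70.2 to 80.2 in F0_5251OV and 68.4 to 75.6 in F0_5NC. These values count the Purb gene and not lncRNA5251, so neither the knockdown nor the overexpression could be checked from these files. The testis label was borne out by its markers: all 10 markers of elongating spermatids, all 10 of spermatocytes and all 8 of Sertoli cells had counts in every library, with Prm1 at a mean of 11400 FPKM (fragments per kilobase, scaled to the library total). F0_5NC replicate 1 stood apart, with the lowest summed level of round spermatid markers (554.0 CPM, against 615.0 to 741.3 in the other libraries) and the highest of Sertoli markers (468.9 CPM, against 280.1 to 365.6). Epididymal markers, of which 6 of 8 were in the table and 3 had counts in every library, summed to 65.2 to 123.5 CPM in F0_5NC replicates 2 and 3 and F0_5251OV replicates 1 and 2, and to less in each of the other 8.

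The members were all well expressed. Their FPKM values, which are per length and so can be set side by side, spanned from 27.6 ± 2.82 (SD, n = 12) for Kcnu1 to 108 ± 6.23 (SD, n = 12) for Catsper2, and their means lay between percentiles 82.7 and 94.7 of all genes in the table. Catsper2, a pore subunit, was the highest member in every library, and its lowest value (99.3 FPKM) lay above the highest of any other member. Kcnu1 was the lowest member in every library and Catsperb always the next, with Catsperb 1.05 to 1.58 times Kcnu1. Between these ends the order was not firm. Catsper1 (69.1 ± 5.17 FPKM), Catsperg1 (65.8 ± 1.64) and Catsper4 (63.0 ± 6.72; SD, n = 12 for each) followed each other by less than the larger of their SDs. Catsper3 (54.7 ± 4.54 FPKM), Catsperd (51.9 ± 2.03) and Catsperg2 (49.6 ± 2.48; SD, n = 12 for each) likewise followed each other by less than the larger SD. Catsper4 exceeded Catsper3 in 11 of 12 libraries and Catsperg2 exceeded Catsperb in 12 of 12.

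**Figure D1:**
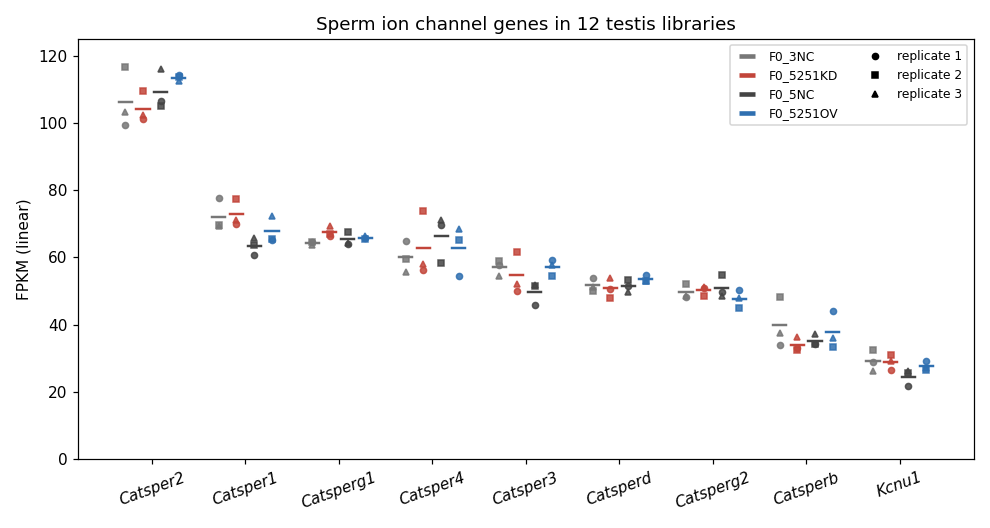
FPKM (linear axis from 0) of each member, ordered by its mean, in the 12 libraries; colours give the group, symbols the replicate number and short bars the group mean of 3. Catsper2 sits between 99.3 and 117 FPKM in all libraries and Kcnu1 between 21.7 and 32.5.

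The pore genes differed in how steady they were over the 12 libraries. Catsper2 varied with a coefficient of variation (CV) of 5.75%, Catsper1 with 7.49%, Catsper3 with 8.3% and Catsper4 with 10.7%. The mean FPKM of the 4 pore genes lay between 69.4 and 80.6 over the libraries. Among the auxiliary genes Catsperg1 had a CV of 2.49% and Catsperd of 3.91%, while Catsperb reached 13%, all in FPKM. For Catsperg1 the length implied by its counts and FPKM differed between libraries, from 4366 to 4948 bases. In CPM Catsperg1 ran from 295 to 337, the highest 1.14 times the lowest, beside 1.09 times in FPKM. Catsperb had its highest values in F0_3NC replicate 2 (48.4 FPKM) and F0_5251OV replicate 1 (44.0 FPKM), and ran from 32.5 to 37.5 FPKM in the other 10 libraries. On log2 CPM the SD within groups was 0.0549 for Catsperg1, lower than in all but 4.58% of the 4342 genes whose mean was 50 CPM or more, and 0.174 for Catsper4 and Catsperb, higher than in 83% and 82.8% of them. The median of those genes was 0.118.

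Knockdown of lncRNA5251 was compared with its own control first. None of the 9 members passed the test between F0_5251KD and F0_3NC (edgeR quasi-likelihood test, Benjamini-Hochberg adjusted p under 0.05), where 0.0245% of all genes tested (4 genes) passed. None reached an unadjusted p under 0.05 either, against 4.74% of all genes. DESeq2 and limma, run as alternatives, also called 0 of 9 in each comparison. The smallest adjusted p among the members was 0.897. The members' log2 fold changes ran from -0.23 to 0.11, with 4 above and 5 below 0 (49.1% of all genes were above), and their median was -0.02, beside -0.004 over all genes tested. All 9 of the 95% intervals held 0, with -0.50 (Catsperb) as the lowest limit and 0.33 (Catsper4) as the highest, so a change of 1 log2 unit in either direction lay outside the interval of every member.

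Among the pore genes, Catsper1 was at 164, 143 and 148 CPM in F0_3NC and at 144, 164 and 149 CPM in F0_5251KD. The groups covered nearly the same range, and the log2 fold change was 0.00 (SE 0.089, 95% interval -0.19 to 0.20). Catsper2 and Catsper3 had log2 fold changes of -0.06 (SE 0.0799) and -0.07 (SE 0.0998), and Catsper4 of 0.06 (SE 0.124). Catsper4 was at 85.9, 114 and 89.7 CPM in F0_5251KD, with replicate 2 its highest value in the whole series and the other 2 within or just below the range of F0_3NC.

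The auxiliary gene Catsperb had the lowest fold change of the members. It stood at 120, 168 and 135 CPM in F0_3NC and at 114, 117 and 130 CPM in F0_5251KD, a log2 fold change of -0.23 (SE 0.124, 95% interval -0.50 to 0.03, adjusted p = 0.897 by edgeR). F0_3NC replicate 2 alone was far above the rest, and without it the log2 fold change was -0.087. Catsperg1, one of the mouse genes for the gamma subunit, was the only member whose groups did not overlap, with 306, 301 and 306 CPM in F0_3NC and 319, 330 and 334 CPM in F0_5251KD, in a comparison where 5.52% of all genes were higher without overlap. Its log2 fold change was 0.11 (SE 0.0662, adjusted p = 0.897 by edgeR). Catsperg2 had 0.01 (SE 0.0786) and Catsperd, the delta subunit, -0.03 (SE 0.0729).

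Kcnu1 was at 97.9, 107 and 89.4 CPM in F0_3NC and at 86.9, 104 and 98.2 CPM in F0_5251KD. The ranges overlapped over most of their length. The log2 fold change was -0.02 (SE 0.108, 95% interval -0.26 to 0.21, adjusted p = 0.973 by edgeR). Beside the knockdown values of the members, the marker medians were 0.33 for endothelium (6 of 6 above 0) and 0.08 for peritubular muscle (6 of 6). They were 0.15 for Leydig cells (5 of 7), 0.13 for macrophages (5 of 7) and 0.09 for Sertoli cells (5 of 8). Elongating spermatids had 0.03 (7 of 10), round spermatids -0.03 (2 of 6) and spermatocytes -0.12 (2 of 10). Spermatogonia had -0.02 (3 of 9) and the tested epididymal markers -0.83 (0 of 4). None of these markers passed the test by edgeR, and their part was not tested.

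**Figure D2:**
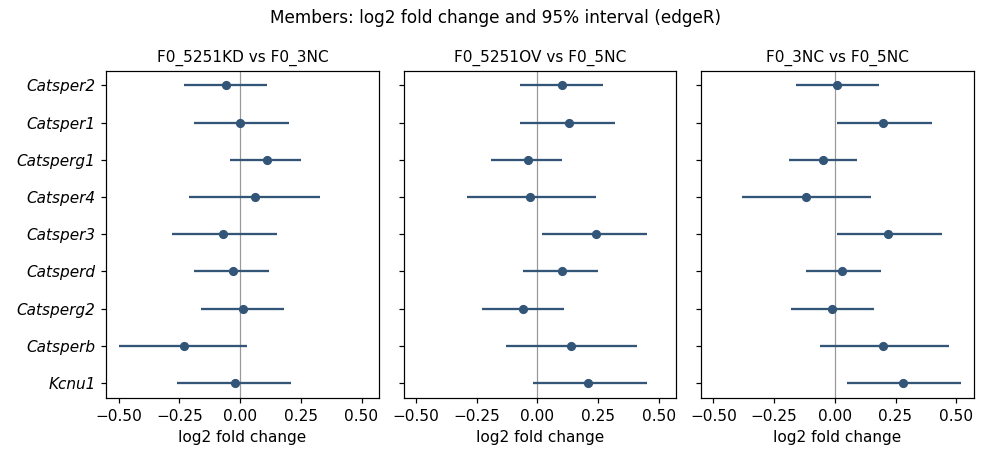
Log2 fold change (x axis, dot) with its 95% interval (line), derived from the edgeR test, for each member in 3 comparisons, F0_5251KD with F0_3NC, F0_5251OV with F0_5NC, and the 2 controls. The KD intervals all cross 0, while Catsper3 in the overexpression panel and Catsper1, Catsper3 and Kcnu1 in the control panel lie to the right of it, none with an adjusted p under 0.05.

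Overexpression was compared with the empty vector. Between F0_5251OV and F0_5NC none of the 9 members passed (edgeR, adjusted p under 0.05), and 0% of all genes tested did, while 1 member, Catsper3, was higher at an unadjusted p under 0.05, against 3.97% of all genes. Of the members, 6 were above and 3 below 0 (49.5% of all genes were above), with log2 fold changes from -0.06 to 0.24 and a median of 0.10, beside -0.002 over all genes tested. The smallest adjusted p was 0.552. The lowest and highest limits of the 9 intervals were -0.29 and 0.45.

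Catsper3 stood at 51.5, 63.4 and 62.7 CPM in F0_5NC and at 70.1, 66.8 and 72.3 CPM in F0_5251OV. The groups did not overlap, as for 7.33% of all genes in the higher direction. The log2 fold change was 0.24 (SE 0.1, 95% interval 0.02 to 0.45, unadjusted p = 0.0339, adjusted p = 0.552 by edgeR), and without F0_5NC replicate 1 it was 0.143. Catsper1 had a log2 fold change of 0.13 (SE 0.0892), Catsper2 of 0.10 (SE 0.0798) and Catsper4 of -0.03 (SE 0.124). Catsper2 was even in F0_5251OV, at 236, 235 and 236 CPM, beside 200, 222 and 238 CPM in F0_5NC.

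Kcnu1 was the other member without overlap, at 67.0, 87.4 and 87.7 CPM in F0_5NC and 97.7, 89.7 and 93.3 CPM in F0_5251OV. The highest control library and the lowest treated one lay close together. The log2 fold change was 0.21 (SE 0.109, 95% interval -0.02 to 0.45, adjusted p = 0.58 by edgeR), and 0.094 without F0_5NC replicate 1. The auxiliary genes had log2 fold changes of 0.14 for Catsperb (SE 0.124), 0.10 for Catsperd (SE 0.0728), -0.04 for Catsperg1 (SE 0.0662) and -0.06 for Catsperg2 (SE 0.0786).

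The marker lists of other cell types stood as follows beside these values. In F0_5251OV against F0_5NC the median log2 fold change was 0.11 for the round spermatid markers, with 6 of 6 above 0, 0.05 for the elongating spermatid markers, with 9 of 10 above 0, and 0.07 for the spermatocyte markers, with 8 of 10 above 0. It was -0.23 for the Sertoli markers and -0.22 for the Leydig markers, with 0 of 8 and 0 of 7 above 0. The tested epididymal markers had the lowest median, -0.61, with 0 of 4 above 0. Spermatogonia markers had -0.06, with 3 of 9 above 0. The peritubular muscle markers had a median of -0.42, with 1 of 6 above 0. Of the 6, 4 were lower at an unadjusted p under 0.05 by edgeR, beside 782 of all 16296 genes tested. That count was 2 of 8 for Sertoli markers and 1 each for Leydig, macrophage, endothelium and spermatocyte markers. The peritubular muscle sums were 304.6 to 362.8 CPM in F0_5NC and 317.5 to 359.0 in F0_5251OV. Most of these sums was Actg2, the 1 marker above 0 (0.16), with means of 245.6 and 275.3 CPM. The macrophage markers had a median of -0.34, with 1 of 7 above 0 and sums of 76.31 to 105.0 and 76.42 to 80.23 CPM. The endothelium markers had -0.18, with 0 of 6 above 0 and sums of 35.75 to 43.87 and 31.9 to 37.53 CPM. No gene of these lists passed the test by edgeR. Summed Sertoli markers were at 338.0 to 468.9 CPM in F0_5NC and 287.3 to 336.2 in F0_5251OV, and summed round spermatid markers at 554.0 to 682.5 and 664.5 to 729.9 CPM. Summed Leydig markers ran from 1785 to 2989 CPM in F0_5NC and from 1432 to 2089 in F0_5251OV. Apart from the epididymal list, no marker of these lists was at 0 in any library, and the part of these lists in the members' values was not tested.

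The 2 control groups received different vectors, and the log2 fold changes of the members between them ran from -0.12 to 0.28, with 6 above 0 (50.1% of all genes were above). Between F0_3NC and F0_5NC none of the 9 passed (edgeR, adjusted p under 0.05), against 0.331% of all genes tested. At an unadjusted p under 0.05 there were 3 members, all higher in F0_3NC, against 6.41% of all genes in that direction, and the same 3 did not overlap between the groups, against 9.59%. They were Kcnu1 with a log2 fold change of 0.28 (SE 0.109, 95% interval 0.05 to 0.52, unadjusted p = 0.0221, adjusted p = 0.372 by edgeR), Catsper3 with 0.22 (SE 0.1, adjusted p = 0.41 by edgeR) and Catsper1 with 0.20 (SE 0.0892, adjusted p = 0.404 by edgeR). Without F0_5NC replicate 1 these log2 fold changes were 0.159, 0.126 and 0.133. Catsperb had the same value as Catsper1, 0.20 (SE 0.124), but its groups overlapped, and without F0_3NC replicate 2 its value was 0.061. The median of the members was 0.03, beside 0.0005 over all genes tested. Round spermatid markers had a median log2 fold change of 0.10 and Sertoli markers of -0.18 in the same comparison, with 6 of 6 and 0 of 8 above 0. The median was -0.29 for macrophage markers, -0.10 for peritubular muscle and -0.10 for endothelium. It was -0.005 for Leydig cells, -0.04 for elongating spermatids and 0.10 for spermatocytes. The epididymal markers stood furthest apart, with a median of -4.24 over the 4 tested, all below 0. Of these, Spink8 passed the test (log2 fold change -3.79, adjusted p = 0.0235 by edgeR). The part of these lists in the members' values was not tested.

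The comparisons with F0_5NC share its libraries, and 1 of those libraries was low for most members. In CPM, F0_5NC replicate 1 held the lowest value of the 12 libraries for 7 of the 9 members, all but Catsper4 and Catsperg2, and the members' mean deviation in it was -0.19 on the log2 scale, against -0.08 to 0.07 in the others. In FPKM, which carries no TMM scaling, it was lowest for 3 members, Kcnu1 (21.7 FPKM), Catsper1 (60.7 FPKM) and Catsper3 (45.9 FPKM). Those 3 were also the members most alike over the 12 libraries, with Pearson r of log2 CPM of 0.88 for Catsper3 and Kcnu1, 0.77 for Catsper1 and Catsper3, and 0.73 for Catsper1 and Kcnu1. The median over all 36 member pairs was 0.24. These correlations are descriptions over 12 libraries that include that low library in common.

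**Figure D3:**
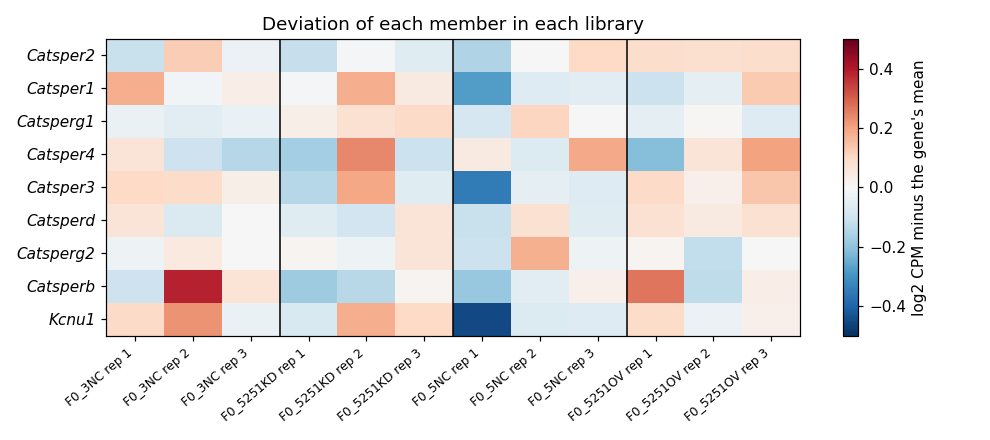
Log2 CPM of each member (rows) minus its mean over the 12 libraries (columns, grouped by treatment), with blue below and red above 0. F0_5NC replicate 1 is blue for all members except Catsper4, and F0_3NC replicate 2 and F0_5251OV replicate 1 are red for Catsperb.

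Knockdown and overexpression were also set against each other in the same fit. The difference of effects (knockdown effect minus overexpression effect) was past the threshold for none of the 9 members (edgeR, adjusted p under 0.05), and 0% of all genes passed. It was lowest for Catsperb at -0.38 (SE 0.175, 95% interval -0.75 to 0.00, adjusted p = 0.441 by edgeR) and Catsper3 at -0.31 (SE 0.141, unadjusted p = 0.0491, adjusted p = 0.441 by edgeR), and highest for Catsperg1 at 0.15 (SE 0.0936). For Kcnu1 it was -0.24 (SE 0.154, 95% interval -0.57 to 0.09). Single control libraries moved these values: without F0_3NC replicate 2 the difference was -0.235 for Catsperb, and without F0_5NC replicate 1 it was -0.203 for Catsper3, -0.108 for Kcnu1 and -0.043 for Catsper1. Catsper3 was the 1 member with an unadjusted p under 0.05, and it was negative, as for 6.08% of all genes. In the same comparison the median of the marker lists was 0.58 for endothelium (6 of 6 above 0), 0.58 for peritubular muscle (5 of 6), 0.51 for macrophages (6 of 7), 0.37 for Leydig cells (6 of 7) and 0.28 for Sertoli cells (8 of 8). It was -0.11 for round spermatids (0 of 6), -0.02 for elongating spermatids (5 of 10) and -0.125 for spermatocytes (2 of 10). No marker passed the test by edgeR, and the part of these lists in the members' values was not tested.

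Catsperg1 and Catsperg2 needed a separate look, since both encode a CATSPERG protein and lie on the minus strand of chromosome 7, at chr7:29181532-29215589 and chr7:29697217-29727049 (RefSeq, GRCm38.p6). Their longest GENCODE coding sequences, of 3453 and 3435 bases, were identical at 96.4% of 3432 aligned bases, and the longest identical stretch was 341 bases. The 60-base stretch of their coding exon 15 where they differ most, at 13 bases, is shown because reads can be told apart there and not in the identical stretches; capitals mark the differing bases. Catsperg1 is read from chr7:29195460-29195519 and Catsperg2 from chr7:29710056-29710115, both on the minus strand (GENCODE transcripts, GRCm38).
Catsperg1: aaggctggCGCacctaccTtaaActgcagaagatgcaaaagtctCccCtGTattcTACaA
Catsperg2: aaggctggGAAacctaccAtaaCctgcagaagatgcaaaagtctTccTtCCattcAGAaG
Of all 100-base windows of the Catsperg1 transcript 21.3% occurred unchanged in Catsperg2, and 20.7% the other way round, while none of the windows of the other 7 members occurred in another member. Catsperg1 and Catsperg2 were also the only members whose estimated counts were not whole numbers, in 11 of 12 libraries each (tolerance 1e-06), and their summed count was. The split between them is therefore an estimate. Catsperg1 exceeded Catsperg2 by 1.24 to 1.46 times in FPKM. With the counts of both summed, the log2 fold change was 0.07 (SE 0.0688) under knockdown, -0.05 (SE 0.0688) under overexpression and -0.04 (SE 0.0688) between the controls, none past the threshold by edgeR.

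The other members lie apart from each other, Catsper1 at chr19:5335615-5344281, Catsper3 at chr13:55784500-55824048, Catsperb at chr12:101404645-101626009, Catsperd at chr17:56626911-56664456 and Kcnu1 at chr8:25848627-25937943, all on the plus strand, and Catsper2 at chr2:121391633-121414598 and Catsper4 at chr4:134211965-134227431 on the minus strand (RefSeq, GRCm38.p6). In GENCODE, exons of Catsper2 shared 18 bases with Pdia3 on the opposite strand, and no other member shared exon bases with another gene. No strand-marking step is named for the libraries.

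The remaining known parts of the CatSper complex were measured with the same depth. All 9 genes of that list (Catspere1, Catspere2, Catsperz, Efcab9, Tmem249, Tmem262, C2cd6, Slco6c1 and Trim69) were tested and none passed in any comparison by edgeR, but some had an unadjusted p under 0.05. There were 0 under knockdown (4.74% of all genes), 2 under overexpression, both higher (3.97% of all genes in that direction), 3 between the controls, all higher in F0_3NC (6.41%), and 4 for the difference of effects, all lower (6.08%). The smallest adjusted p was 0.897 under knockdown, 0.52 under overexpression, 0.342 between the controls and 0.403 for the difference of effects. Their mean levels ran from 26 FPKM for Catspere1, an epsilon subunit gene, to 442 FPKM for Catsperz, the zeta subunit gene. Estimated counts of Catspere1 and Catspere2 were not whole numbers (1085.26 and 1183.74 in F0_3NC replicate 1), so the split between them is an estimate. Those of Catsperz were not whole either (4483.04 in that library). Efcab9, the calcium sensor that partners CATSPERZ, was between 168 and 237 FPKM. Under knockdown 8 of the 9 were below 0 (50.9% of all genes), with a median log2 fold change of -0.14, and under overexpression 8 of the 9 were above 0 (49.5% of all genes), with a median of 0.10. The difference of effects was below 0 for 8 of the 9 (49.6% of all genes), with a median of -0.21. In F0_3NC against F0_5NC 8 of the 9 were also above 0 (50.1% of all genes), with a median of 0.18, and this comparison shares its F0_3NC libraries with the knockdown one. In CPM, C2cd6, Efcab9, Slco6c1 and Trim69 had their highest F0_3NC value in replicate 2, and the other genes of this list did not. F0_5NC replicate 1 was the lowest of its group for every gene of the list except Catspere1 and Catspere2. Values without single libraries were not computed for this list. Tmem249 had the largest overexpression value, 0.33 (unadjusted p = 0.00528, adjusted p = 0.52 by edgeR), from 33.1, 35.9 and 31.3 FPKM in F0_5NC to 39.8, 42.0 and 40.9 FPKM in F0_5251OV.

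The accessory gene of the potassium channel was expressed at the level of the channel gene. Lrrc52 averaged 26.6 FPKM, beside 27.6 FPKM for Kcnu1, with a range from 21.9 to 33.6 FPKM. Its log2 fold change was -0.12 (SE 0.147) under knockdown, -0.04 (SE 0.148) under overexpression and 0.25 (SE 0.147) between the controls, none past the threshold by edgeR. The other Slo-type genes were nearly silent beside Kcnu1: Kcnma1, Kcnt1, Kcnt2 and Lrrc26, the accessory gene of Kcnma1, had at most 1.03 FPKM in any library.

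Of 17 further genes for ion transport and capacitation in sperm, 15 were tested, and none passed in any comparison by edgeR, but some had an unadjusted p under 0.05. There was 1 under knockdown (4.74% of all genes), 0 under overexpression (8.77%), 4 between the controls, of which 2 were higher and 2 lower in F0_3NC (11.9%), and 3 for the difference of effects, 1 above and 2 below 0 (11.3%). Slc9b2 and Slc26a3 did not pass the filter on low counts. Slc9c1, the sperm-specific sodium-proton exchanger, was at 40.2, 45.6 and 35.4 FPKM in F0_3NC and 31.9, 36.9 and 32.8 FPKM in F0_5251KD, a log2 fold change of -0.27 (SE 0.122, unadjusted p = 0.0468, adjusted p = 0.897 by edgeR). It was the 1 gene of this list with an unadjusted p under 0.05 under knockdown. Adcy10, the soluble adenylyl cyclase, had -0.16 (SE 0.0958). The sodium pump gene of sperm, Atp1a4, was the highest of the list at 300 FPKM and had its lowest value, 260 FPKM, in F0_5NC replicate 1.

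**Figure D4:**
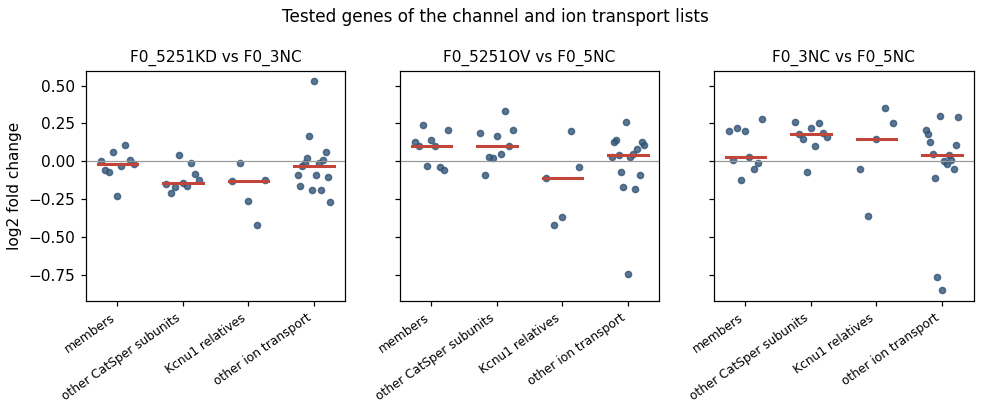
Log2 fold change (y axis) of every tested gene of the 4 lists in 3 comparisons; each dot is a gene and each red bar the list median. The medians of the members are -0.02, 0.10 and 0.03, and no dot has an adjusted p under 0.05.

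The genes most like the members were searched among 15090 other genes averaging 1 CPM or more and having a count in every library. Over the 12 libraries the mean of the members' centred log2 CPM was followed most closely by Ero1lb, Mapk6 and Erich3 (Pearson r 0.95 each) and by Zp3r and Gykl1 (0.94 each). Kcnu1 alone was followed most closely by Cdkn2aip, Rbms1 and Fam209 (0.95 each). These are descriptions of 12 points that share library depth and the low values of F0_5NC replicate 1.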

How the data were processed

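Testis RNA of mice was read in 4 groups of 3 libraries. Messenger RNA was captured on oligo(dT) beads, and reads from an Illumina sequencer were aligned with SOAPaligner, with mm10 as the build per the labels. Which program produced the table was not stated. The authors deposited estimated counts (12.0% not whole, so reads were shared between alike genes) and FPKM values, which divide those estimated counts by an effective transcript length and the library total. The 18 per-sample columns that match no sample of the series were not used.

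Estimated counts were rounded and fitted in edgeR 4.0.16 (R 4.3.3) with TMM scaling (factors 0.97 to 1.078), filterByExpr and the quasi-likelihood test, two-sided, over all 12 libraries (8 residual degrees of freedom), with Benjamini-Hochberg adjustment over 16296 genes at 0.05. Intervals are 95%. Library totals were nearly equal (15431383 to 16355720), and every member had at least 859 counts in each library. Alternatives were DESeq2 1.42.0, limma 3.58.1 on log2(FPKM + 1) and log2(FPKM + 0.1), upper-quartile scaling, other filters, only the groups compared, scaling to spermatid genes, both Catsperg genes summed, a replicate block, and leaving out each library.

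The members and gene lists were chosen with earlier results of these data known. Named were the members, any gene of the 3 related lists, and the 5 genes most like the members and 3 most like Kcnu1 by Pearson r. Symbols were matched to RefSeq GRCm38.p6 and GENCODE vM21 for positions and transcripts.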

Additional observations from a re-analysis of the deposited data

How the results depend on the processing

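No member passed the threshold in any comparison under any alternative. Of the members' alternative values, 185 of 196 under knockdown, 190 of 196 under overexpression, 184 of 196 between the controls and 184 of 187 for the difference of effects kept their sign, and the smallest adjusted p were 0.684, 0.387, 0.308 and 0.359. With the 2 Catsperg genes summed, the median log2 fold change of the members between the controls moved from 0.0345 to 0.119, as there were then 8 values. Leaving out 1 library, the members' median ran from -0.08 to 0.00979 under knockdown, 0.0555 to 0.166 under overexpression, -0.00878 to 0.0899 between the controls and -0.185 to -0.0799 for the difference. Leaving out F0_5NC replicate 1 gave the lowest overexpression and control medians. Over all genes, 0 to 7 were called under knockdown when 1 library was left out and 30 to 68 between the controls. Under the other alternatives the overexpression median lay between 0.0566 and 0.113. Replicate numbers did not pair the libraries: correlations of deviations between same-numbered libraries ran from -0.23 to 0.19, with 3 of 18 over 0.1. With a replicate block 0 members were called in each comparison, and over all genes 2 were called in place of 4 under knockdown and 50 in place of 54 between the controls. With 3 libraries a group, differences smaller than the reach of the 95% intervals were not detectable. Lying beyond that reach was not enough to be called either, as calls used the adjusted p. Kcnu1 between the controls had a log2 fold change of 0.28 (95% interval 0.05 to 0.52) with an adjusted p of 0.372 by edgeR.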
